A study of Mus musculus with 8 samples.

Results

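The genes described here are the cytokines LIF and CNTF (Lif, Cntf), the receptor chains they share with interleukin-6 and oncostatin M (Il6st, Lifr, Osmr, Cntfr, Il6ra), and the transducer and feedback inhibitor downstream of them (Stat3, Socs3). They were taken by symbol, 9 of the 56748 genes counted, and all 9 were found. The set was chosen by a reading of the CPM differences between these same transgenic and control libraries, so those differences are given as a description and support nothing further. Calls and p-values of these 9 genes on that contrast restate the choice and are no test of it. The tissue was forebrain from 1 hemisphere of mice aged 18 months, with 4 libraries from TgCRND8 mice (Tg) and 4 from littermates without the transgene (NTg). TgCRND8 mice overexpress the amyloid precursor protein, from a human transgene driven by the hamster prion promoter, and develop amyloid plaques. No other treatment is labelled in either group, and all libraries carry the same batch label.

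The gp130 protein, encoded by Il6st, is the signalling chain common to the interleukin-6 family of cytokines. LIF signals through gp130 paired with the LIF receptor, mouse oncostatin M chiefly through gp130 paired with the oncostatin M receptor, CNTF through a complex of gp130, the LIF receptor and the CNTF receptor, and interleukin-6 through its own receptor chain and gp130. The paired chains activate JAK kinases, which phosphorylate Stat3; Stat3 then induces Socs3, which blocks the receptor and its kinases. In brain this route is known for its part in astrocyte reactivity after injury.

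Each library held 57129090 to 65242741 counts, and 21588 genes passed the filter on low counts. App, which checks the genotype labels, rose from 1488 ± 98.4 to 2851 ± 213 CPM (SD, n = 4), where CPM is the read count scaled to a common library size. Its log2 fold change was 0.94 (SE 0.07, edgeR adjusted p = 0.00146). Counts are per mouse gene, so this level may include human transgene reads that align to App. Over all genes the edgeR quasi-likelihood test called 3 at an FDR of 0.05, which is 0.0139% of those tested (0.00926% higher and 0.00463% lower in Tg). DESeq2 called 1.63% (1.33% higher in Tg), and edgeR called 1.43% (1.26% higher) of the 21884 genes tested without Tg replicate 1, which stood nearest to the NTg libraries in many of the values below. Of the 9 genes, 8 were tested and Cntf was too scarce. On the contrast that chose them, edgeR called 0 of the 8, and 5 had an unadjusted p under 0.05 (4.68% of all genes did so in that direction). DESeq2 called 4, Lif, Osmr, Stat3 and Socs3, as did edgeR without Tg replicate 1. The choice of the genes fixes how these counts compare with the shares over all genes, so nothing is read from them. In Lif, Osmr and Stat3 the 4 Tg libraries all lay above the 4 NTg libraries, as did 2.62% of all tested genes, a share that again is no yardstick for genes chosen in this way. The median log2 fold change of the 8 was 0.32, beside -0.0024 over all tested genes. In whole tissue, more cells of a type and more RNA per cell cannot be told apart.

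**Figure D1:**
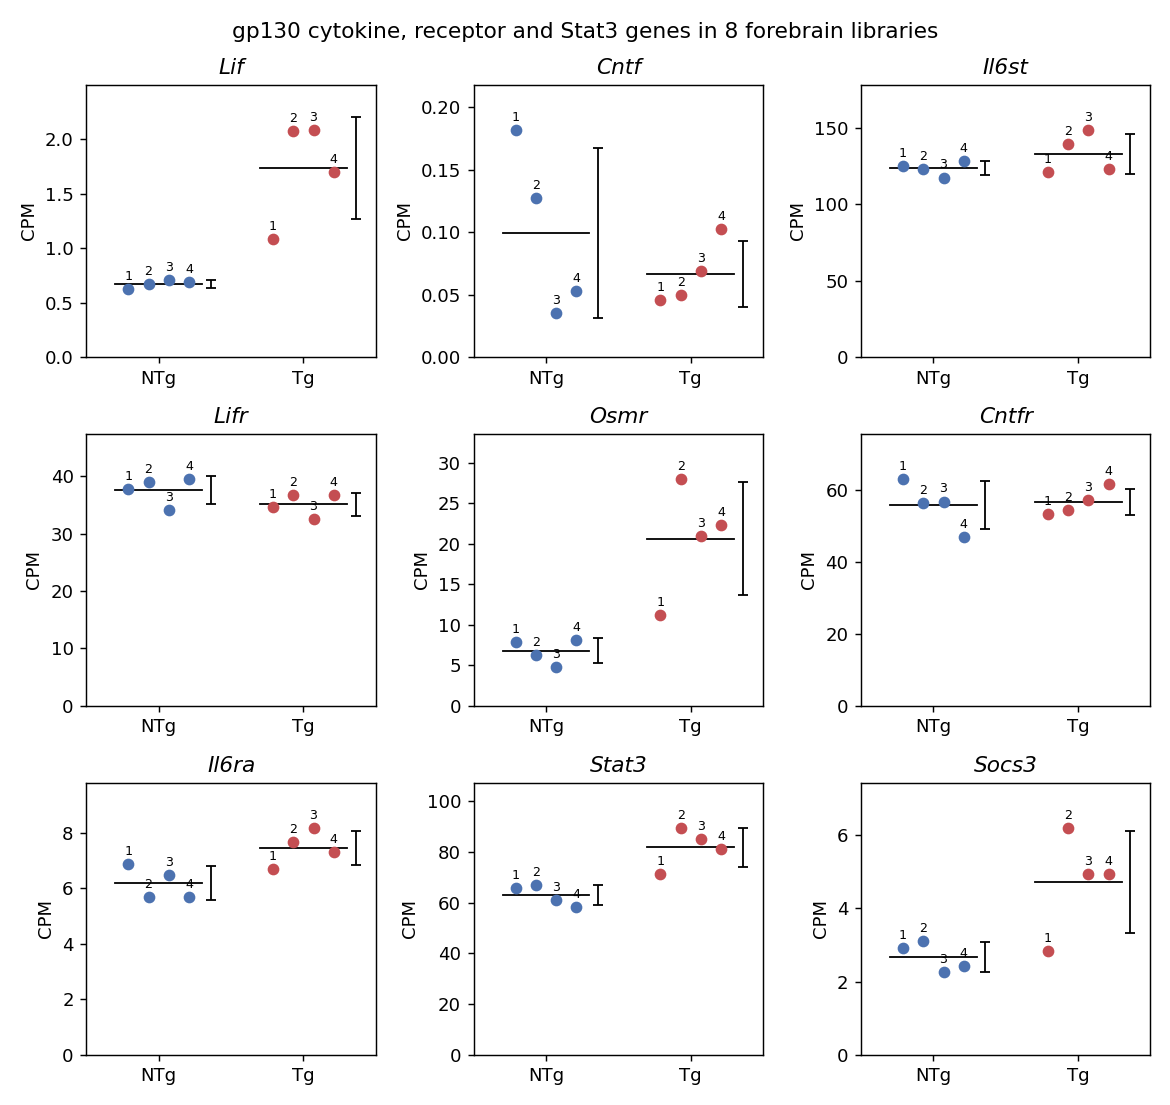
CPM of the 9 genes in each library (points, numbered by replicate), with the mean (line) and SD (bar) of the 4 libraries of each genotype; each panel starts at 0 and has its own scale. The Tg libraries lie above all NTg libraries for Lif, Osmr and Stat3, and Tg replicate 1 is the lowest Tg library in every panel but that of Lifr.

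Lif, the scarcest of the tested genes, was higher in every Tg library. Its level was 0.627, 0.667, 0.711 and 0.688 CPM in NTg replicates 1 to 4, and 1.09, 2.07, 2.08 and 1.70 CPM in the Tg replicates. The NTg libraries lay close together, and the lowest Tg library, replicate 1, still lay above them. The means were 0.673 ± 0.0354 and 1.73 ± 0.468 CPM (SD, n = 4), a fitted 2.57-fold difference (log2 fold change 1.36, SE 0.21). These levels rest on 38 to 126 counts per library.

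Cntf, a survival factor for neurons made by glia, was near the limit of detection. It had 2 to 11 counts per library, 24 in all in the NTg and 16 in the Tg libraries, and the genotypes overlapped. The gene lies beside Zfp91 in the RefSeq annotation, and reads cannot be assigned with certainty where transcripts overlap.

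The other ligands of the family were scarce too, and edgeR called 0 of the 6 tested, as did DESeq2 of the 5 to which it gave an adjusted p. Osm, which encodes oncostatin M, the ligand of Osmr, was at 0.165, 0.254, 0.160 and 0.0882 CPM in the NTg replicates. It was at 0.241, 0.477, 0.396 and 0.549 CPM in the Tg replicates. Tg replicates 2 to 4 lay above all NTg libraries, and Tg replicate 1 lay within their range (log2 fold change 1.29, SE 0.35, edgeR adjusted p = 0.279). With 5 to 32 counts per library, Osm was measured less precisely than its receptor, and DESeq2 gave it no adjusted p. Clcf1, a CNTF-like cytokine, was at 0.863 ± 0.227 and 1.08 ± 0.326 CPM (SD, n = 4). Cardiotrophin-1 (Ctf1) was at 1.78 and 1.79 CPM, Il11 at 0.528 and 0.542 CPM and Ebi3, a subunit of interleukin-27, at 0.436 and 0.528 CPM, NTg first. Il6, Ctf2 and Il27 were too scarce to test, with 2 to 6 counts per library for Il6, 1 to 8 for Ctf2 and 0 to 4 for Il27. The median log2 fold change of the 6 tested ligands was 0.15, beside -0.0024 over all genes, and it moved with single libraries. Leaving out Tg replicate 4 gave 0.044 and leaving out Tg replicate 3 gave 0.24. Among the NTg libraries, leaving out replicate 3 gave 0.096 and leaving out replicate 1 gave 0.30.

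Osmr, the oncostatin M chain, had the largest fitted fold change of the 5 receptor chains in the set; differences between chains were not tested. It was at 7.91, 6.29, 4.82 and 8.13 CPM in NTg replicates 1 to 4. In the Tg replicates it was at 11.2, 28.0, 20.9 and 22.4 CPM. All Tg libraries lay above the NTg libraries, with replicate 1 nearest to them. The means of 6.79 ± 1.55 and 20.6 ± 6.97 CPM (SD, n = 4) gave a fitted 3.04-fold difference (log2 fold change 1.60, SE 0.26). On the log2 scale the lead over the NTg mean was 0.75 in Tg replicate 1 and 1.65 to 2.07 in the others.

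Lifr, the partner chain for LIF and the neighbour of Osmr in the receptor family, overlapped between the genotypes. It was at 37.8, 39.0, 34.1 and 39.5 CPM in the NTg replicates and at 34.6, 36.7, 32.5 and 36.7 CPM in the Tg replicates. Among the Tg libraries only replicate 3 lay below all NTg libraries (log2 fold change -0.10, SE 0.06). Il6st, the chain shared by the whole family, was at 125, 123, 117 and 128 CPM in the NTg replicates. It was at 121, 139, 148 and 123 CPM in the Tg replicates. Tg replicates 2 and 3 lay above all NTg libraries, and the other Tg libraries lay among them (log2 fold change 0.11, SE 0.07).

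The ligand-specific chains Il6ra and Cntfr also overlapped between genotypes. Il6ra, which binds interleukin-6, was at 6.89, 5.69, 6.49 and 5.68 CPM in the NTg replicates and at 6.70, 7.66, 8.17 and 7.30 CPM in the Tg replicates. Tg replicates 2 to 4 lay above the NTg libraries and Tg replicate 1 did not (log2 fold change 0.27, SE 0.10). Cntfr, the CNTF-binding chain, which is anchored to the membrane by a lipid, was at 62.9, 56.3, 56.7 and 46.8 CPM in the NTg replicates. It was at 53.3, 54.3, 57.1 and 61.4 CPM in the Tg replicates, with the NTg libraries spread more widely than the Tg libraries (log2 fold change 0.02, SE 0.09). Of the 3 further receptor chains of the family edgeR called 0, and DESeq2 called neither Il11ra1 nor Il27ra and gave Il31ra no adjusted p. Il11ra1, the interleukin-11 receptor, was at 28.1 ± 1.23 and 29.8 ± 2.54 CPM (SD, n = 4), with counts made uncertain by its close copies in the mouse genome. Il27ra was at 0.623 and 0.536 CPM and Il31ra, the other partner of Osmr, at 0.254 and 0.304 CPM.

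Levels of different genes can be compared only per length, here as CPM per kilobase of merged exons. In NTg the order was Cntfr at 20.01 ± 2.39, Il6st at 11.1 ± 0.404, Stat3 at 6.62 ± 0.418 and Lifr at 3.49 ± 0.225 CPM per kilobase (SD, n = 4). Below these stood Socs3 at 0.926 ± 0.141, Il6ra at 0.716 ± 0.0695 and Osmr at 0.560 ± 0.128, then Lif at 0.155 ± 0.00813 and Cntf at 0.0926 ± 0.0631. Across libraries the ranges of Socs3 and Il6ra, of Il6ra and Osmr, and of Lif and Cntf overlapped, while those of the other neighbours did not. Within each NTg library, however, Socs3 lay above Il6ra. Il6ra lay above Osmr in NTg replicates 1 to 3 and below it in replicate 4. Lif lay above Cntf in NTg replicates 2 to 4 and below it in replicate 1. In Tg the first 4 kept their order, and Osmr, at 1.70 ± 0.576 CPM per kilobase, came next, overlapping Socs3 at 1.63 ± 0.484. The lowest Tg library of Osmr, at 0.927, also lay below the highest of Il6ra, at 0.946. These values came from different libraries, and within each Tg library Osmr lay above Il6ra. The transcript lengths in use are not known, so the order depends on the annotated exons.

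**Figure D2:**
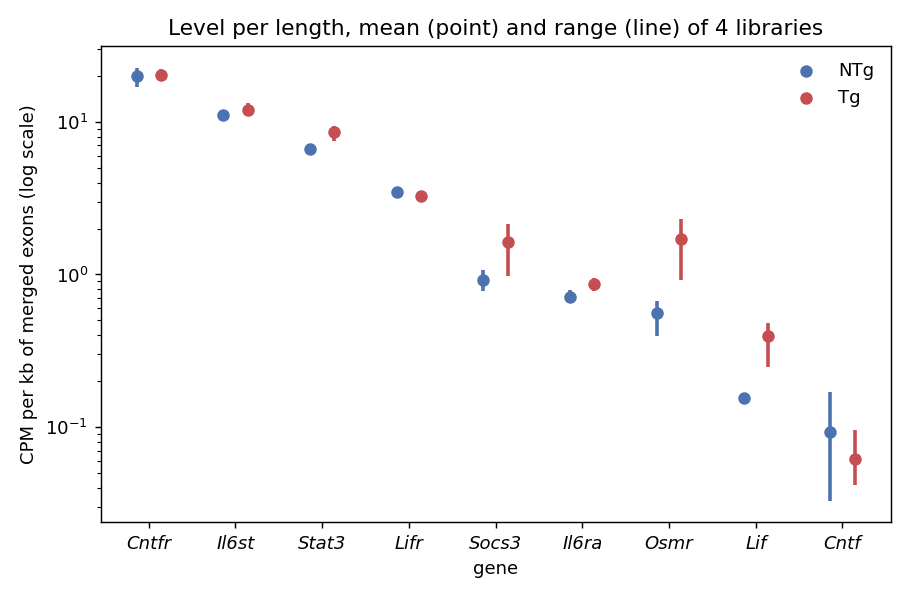
Level per length of the 9 genes (CPM per kilobase of merged exons, log scale), as mean (point) and range (line) of 4 libraries per genotype. In mean, Osmr lies below Il6ra in NTg (0.560 against 0.716) and above it in Tg (1.70 against 0.863), with ranges that overlap in both genotypes. Cntfr, Il6st, Stat3 and Lifr keep the first 4 places.

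Set against its sister chain per length, Osmr over Lifr was 0.186, 0.144, 0.126 and 0.183 in the NTg replicates, and 0.288, 0.679, 0.572 and 0.541 in the Tg replicates. Every Tg library lay above the NTg libraries, with means of 0.160 ± 0.0299 and 0.520 ± 0.165 (SD, n = 4). Osmr over Il6st went from 0.0501 ± 0.00990 to 0.141 ± 0.0441, while Lifr over Il6st was 0.314 ± 0.0112 and 0.275 ± 0.0362. Transcripts of Lifr thus remained the more abundant of both partner chains in all 8 libraries.

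Stat3, the transcription factor of the pathway, was higher in every Tg library by a smaller factor. It was at 65.9, 66.8, 61.2 and 58.3 CPM in the NTg replicates and at 71.4, 89.5, 85.3 and 81.2 CPM in the Tg replicates. The genotypes did not overlap, with Tg replicate 1 closest to the NTg values. The means were 63.0 ± 3.98 and 81.8 ± 7.76 CPM (SD, n = 4), a fitted 1.30-fold difference (log2 fold change 0.38, SE 0.07).

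Socs3, the feedback inhibitor that Stat3 induces, separated the Tg libraries. It was at 2.92, 3.11, 2.26 and 2.42 CPM in the NTg replicates. In the Tg replicates it was at 2.82, 6.20, 4.94 and 4.94 CPM. Tg replicate 1 lay inside the NTg range and the other Tg libraries above it. The means were 2.68 ± 0.407 and 4.72 ± 1.40 CPM (SD, n = 4), a fitted 1.76-fold difference (log2 fold change 0.82, SE 0.22). Socs3 over Stat3, per length, was 0.140 ± 0.0139 in NTg and 0.187 ± 0.0413 in Tg, with 0.130 in Tg replicate 1 and 0.191 to 0.228 in the others.

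Lif, Osmr, Stat3 and Socs3 all stood higher in Tg replicates 2 to 4. Promoter letters are shown for Lif and Socs3, from RefSeq on build GRCm38.p6, which is older than the build of the counts. The 250 bases before each annotated start were searched for TTCNNNGAA, the palindromic pattern bound by STAT factors, and for TGANTCA, bound by AP-1 factors; each pattern equals its own reverse complement, so both strands were covered. These patterns were chosen with the sequences in view. Among 15 windows of the 9 genes, 1 held TTCNNNGAA, that of Socs3, and 2 held TGANTCA, those of Lif and Cntf. The windows of Osmr and Stat3 held neither and are not shown. Of all 32851 promoter windows, 7.02% held the first pattern and 6.75% the second. Differences of the 9 genes from these shares were not tested. The Socs3 match spans bases -154 to -146 and the Lif match bases -228 to -222, counted back from the start; a match is a description of letters, not a site. Capitals mark the matches below, for Socs3 in the 30 bases around it at chr11:117969501-117969530 (minus strand), and for Lif in the upstream stretch chr11:4257318-4257556 (plus strand).
Socs3: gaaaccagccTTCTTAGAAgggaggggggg
Lif: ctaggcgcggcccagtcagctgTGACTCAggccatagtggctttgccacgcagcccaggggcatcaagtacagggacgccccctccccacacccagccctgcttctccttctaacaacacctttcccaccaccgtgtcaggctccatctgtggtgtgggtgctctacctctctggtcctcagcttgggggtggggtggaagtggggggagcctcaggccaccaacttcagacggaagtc

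Of 10 kinases and other STAT factors tested, 0 were called by edgeR or DESeq2, with a median log2 fold change of 0.14, or 0.054 without Tg replicate 3; 1, Jak3, was higher at an unadjusted p under 0.05. Jak1, the kinase most tied to gp130, was at 189 ± 3.21 and 183 ± 6.69 CPM, and Jak2 at 55.8 ± 2.13 and 54.3 ± 6.02 CPM (SD, n = 4). Jak3, a kinase of blood-lineage cells, was at 5.69 ± 0.741 and 7.92 ± 1.61 CPM (log2 fold change 0.48, SE 0.15, edgeR adjusted p = 0.389). Stat2, which acts in interferon signalling, was at 35.2 and 39.2 CPM and Stat6, activated by interleukin-4, at 13.0 and 14.8 CPM. None of these separated the genotypes, and the log2 fold change of Stat3 lay above those of Stat2 and Stat6, at 0.16 and 0.18; differences between genes were not tested.

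Among 15 further inhibitors of JAK and STAT signalling, edgeR called 0 and DESeq2 called 1, Ptpn6, beside 1.33% of all genes called higher by DESeq2. These inhibitors too were chosen with earlier results of these data known, so that share is no yardstick for them. Their median log2 fold change was -0.02, which ran from -0.03 to 0.0027 with single libraries left out. Ptpn6, a phosphatase of blood-lineage cells also known as SHP-1, stood at 5.20 ± 1.22 CPM in the NTg libraries and at 8.49 ± 1.31 CPM in the Tg libraries (SD, n = 4), with a log2 fold change of 0.71 (SE 0.17; edgeR adjusted p = 0.196). Its Tg replicate 1, at 6.53 CPM, lay below the highest NTg library, and edgeR called the gene without that replicate. Ptpn11, the phosphatase SHP-2 that docks on gp130, was lower in all 4 Tg libraries by a small amount, at 224 ± 4.48 and 214 ± 6.47 CPM (log2 fold change -0.07, SE 0.04, adjusted p = 0.837); 1.58% of all genes separated in that direction. Socs5 was at 121 and 116 CPM, the cytokine-inducible inhibitor Cish at 3.61 and 3.22 CPM, and the STAT-binding proteins Pias1 and Pias2 at 69.1 and 72.3, and 54.7 and 52.0 CPM. Beside the 0.82 of Socs3, its relatives Socs1, Socs2, Socs4, Socs5, Socs6 and Socs7 had log2 fold changes between -0.06 and 0.04; differences between genes were not tested.

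**Figure D3:**
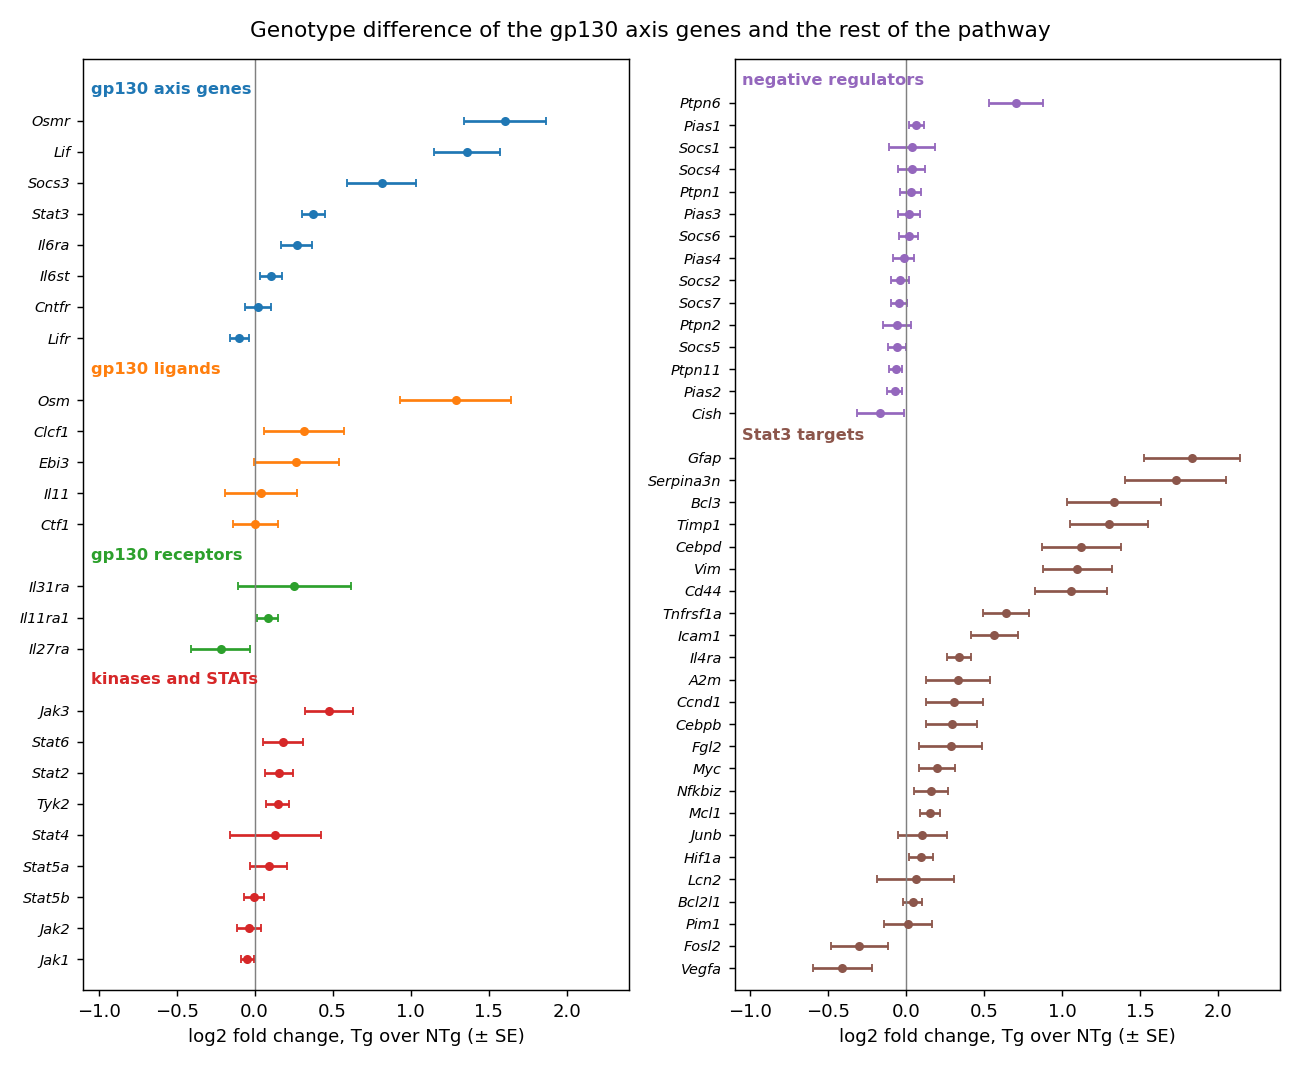
Log2 fold change of Tg over NTg with its SE, from the edgeR fit, for the 8 tested genes of the gp130 axis and 56 other tested genes of the pathway by role. Osmr (1.60), Lif (1.36) and Socs3 (0.82) stand out on the left, Osm (1.29) among the ligands, and Ptpn6 (0.71) among the inhibitors, while kinases and STATs stay within -0.05 to 0.48.

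Genes listed here as known Stat3 targets were mostly higher in Tg. Whether Stat3 set their levels in this tissue was not tested. Of 24 tested, 22 were higher and 2 lower, with a median log2 fold change of 0.30, beside -0.0024 over all tested genes. Calls were 0 by edgeR and 10 by DESeq2, all higher, beside 1.33% of all genes called higher by DESeq2. Without Tg replicate 1 edgeR called 8 of those 10, beside 1.26% of all genes called higher. In 10 of the 24 the genotypes did not overlap, all higher in Tg, beside 2.62% of all genes. The list was chosen with earlier results of these data known, so the shares over all genes are no yardstick for it. Bcl3, an atypical inhibitor of NF-kB factors, was at 0.845 ± 0.158 and 2.13 ± 0.788 CPM (SD, n = 4), with a log2 fold change of 1.33 (SE 0.30; edgeR adjusted p = 0.169). Timp1, a metalloproteinase inhibitor, was at 0.562 ± 0.0962 and 1.39 ± 0.453 CPM (log2 fold change 1.30, SE 0.25, adjusted p = 0.121). The astrocyte filament gene Gfap, the protease inhibitor Serpina3n and the filament gene Vim had log2 fold changes of 1.83, 1.73 and 1.10, with adjusted p of 0.107, 0.121 and 0.124. The list was not uniform: Lcn2, Pim1, Bcl2l1 and Junb, chosen after their values were seen, had log2 fold changes of 0.06, 0.01, 0.04 and 0.10.

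In several of these genes Tg replicate 1 lay apart from the other Tg libraries. It was the lowest Tg library in 7 of the 8 tested genes of the axis and in 28 of 58 other pathway genes, beside 25.8% of all tested genes. These genes were chosen with results of these libraries known, so that share is no yardstick for them. On the log2 scale relative to the NTg mean, Tg replicate 1 was at 0.67 for Lif, 0.75 for Osmr, 0.18 for Stat3 and 0.09 for Socs3. The other Tg libraries were at 1.29 to 1.58, 1.65 to 2.07, 0.37 to 0.51 and 0.89 to 1.21. Gfap was likewise lowest there, at 0.50 in Tg replicate 1 and 1.83 to 2.26 in the others. App was also lowest in that library, at 2532 CPM against 2934 to 2980 CPM. Without Tg replicate 1 the log2 fold changes were 1.53 for Lif, 1.81 for Osmr, 0.44 for Stat3 and 1.00 for Socs3. It was the lowest Tg library for each of them, so higher values follow from leaving it out.

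**Figure D4:**
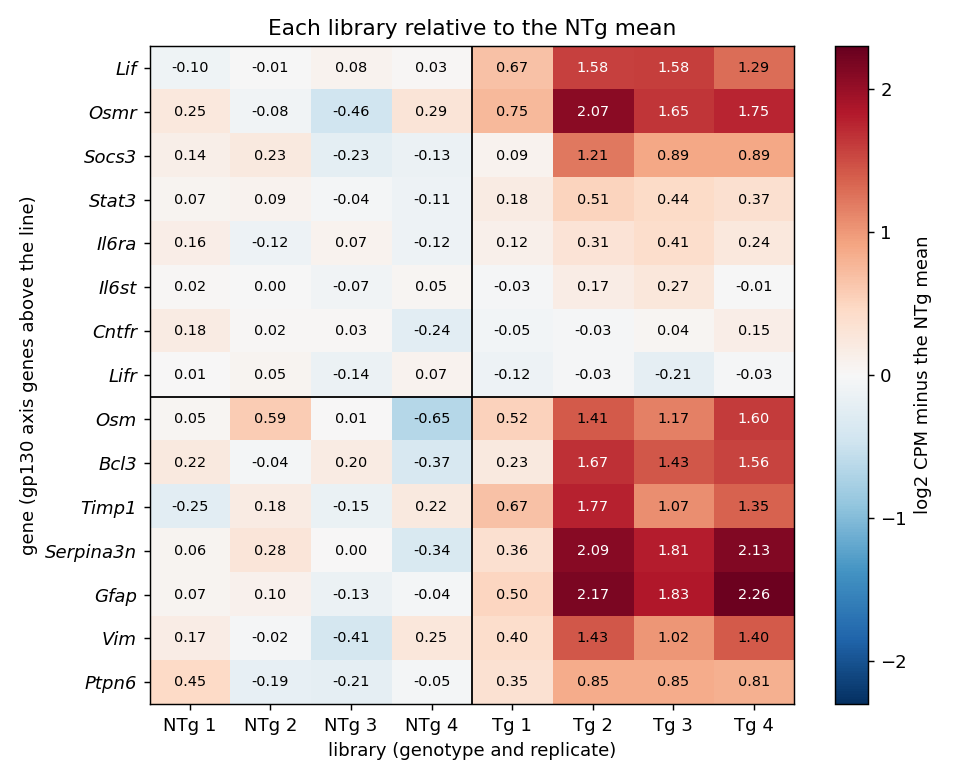
Log2 CPM of each library (columns) minus the NTg mean, for the 8 tested genes of the axis (above the line) and 7 pathway genes (below it). Tg replicate 1 stands between the NTg libraries and the other Tg libraries for Lif (0.67 against 1.29 to 1.58), Osmr (0.75 against 1.65 to 2.07) and Gfap (0.50 against 1.83 to 2.26).

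Markers of cell types that could carry these transcripts moved in part with them. All 8 microglial markers were higher in Tg, 0 called by edgeR (median log2 fold change 0.64), and their summed level ran from 278 to 359 CPM over the NTg libraries, was 366 CPM for Tg replicate 1, and lay between 566 and 577 CPM for Tg replicates 2 to 4. C1qa, a complement subunit and among the most abundant of them, had a log2 fold change of 1.08. The 8 astrocyte markers, led by Slc1a2 and Aldoc, summed to 3770 to 4578 CPM in NTg and 3937 to 4313 CPM in Tg, with a median of 0.09. Of these, 6 were higher in Tg and 2 lower, and the sum is weighted towards the most abundant. The 8 endothelial markers, led by Flt1 and Slco1a4, were all lower (median -0.27), with sums of 199 to 248 CPM in NTg and 156 to 212 CPM in Tg. The 6 choroid plexus markers, led by Ttr, were all lower (median -0.93), with sums of 601 to 918 CPM in NTg and 309 to 573 CPM in Tg, replicate 1 being at 480 CPM. The 5 red blood cell markers, led by Hbb-bs and Hba-a1, had a median of -0.82 and set Tg replicate 1 apart from the other Tg libraries, as Lif, Osmr and Socs3 did. They summed to 1282 to 3271 CPM in NTg, to 3003 CPM in Tg replicate 1 and to 448 to 732 CPM in Tg replicates 2 to 4. Relative to the NTg mean, Hbb-bs was at 0.67 on the log2 scale in Tg replicate 1 and at -2.12 to -1.35 in the others. Medians were -0.14 for mural cells, 0.03 for meningeal fibroblasts, -0.15 for oligodendrocytes, -0.07 for neurons, 0.06 for ependyma, -0.32 for neutrophils and -0.16 for T cells. No marker was at 0 in all libraries, and edgeR called 0 in any of the 12 lists. The part of these cell types in the levels of Lif, Osmr, Stat3 and Socs3 was not tested.

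The genes most like Osmr, Lif and Socs3 over the 8 libraries were found by the root mean square difference between log2 CPM profiles, each set to 0 at its NTg mean, among 14014 genes with a mean of at least 1 CPM, leaving out predicted genes and clones by their symbols. Nearest to Osmr was Itgax, an integrin of myeloid cells, at 0.16, which went from 6.18, 5.10, 4.76 and 8.06 CPM in the NTg replicates to 8.36, 27.4, 19.9 and 19.6 CPM in the Tg replicates. It was followed by Lilrb4a at 0.23, Lilr4b and Clec7a at 0.25 and Trem2 at 0.26, all receptors of myeloid cells. Naming stopped at 5 genes, so it does not tell cell types apart. The astrocyte gene Gfap lay 0.50 above its NTg mean in Tg replicate 1 and 1.83 to 2.26 in the others. The values of Osmr were 0.75 and 1.65 to 2.07. Counts of Lilrb4a and Lilr4b are uncertain, since they are near-identical copies. Nearest to Lif, all at 0.21, were Lilr4b, Mpeg1, Slc15a3, Clec7a and Cd68. Nearest to Socs3 were Apobec1 at 0.12, the sphingosine phosphate receptor S1pr3 at 0.13, Cd109 at 0.14, and the protease Ctsd and the tetraspanin Cd9 at 0.15. All of these are descriptions over 8 libraries that share the genotype difference.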

How the data were processed

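Polyadenylated RNA was sequenced from 8 libraries, 4 per genotype. Libraries were made with a TruSeq kit that does not mark strand and read as paired ends, per the labels' protocols. The authors deposited the counts as raw reads per Ensembl gene, not normalized. STAR, DESeq2 and the build GRCm39 are named in the submitters' processing notes; their versions, the counting tool and its annotation are, however, not given in the sources used here. Columns were tied to samples by library name; 0 columns were of another series.

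A name table gave symbols for 52073 of the 56748 identifiers. Genes were kept by filterByExpr (minimum count 10, minimum total 15), scaled by TMM and tested by the quasi-likelihood F test of edgeR 4.0.16 in R 4.3.3. The p-values were adjusted by Benjamini-Hochberg over all genes that passed the filter. The SE is the log2 fold change divided by the square root of F. Fold changes are Tg over NTg. Exon lengths came from GENCODE M21, on an older build than the counts. The code was tested on simulated data. The 9 genes, the 61 other pathway genes in 5 lists and the 76 markers in 12 lists were chosen with earlier results of these data known. Named were all 9 genes, App, all listed ligands and receptors, the 4 largest changes and 2 most abundant genes of each pathway list, the 2 most abundant of each marker list, and the 5 genes most alike to each gene with a log2 fold change of at least 0.5 (prior count 2); some of these are not reported here.

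Alternatives were DESeq2 1.42.0, other scaling, other filters, the replicate number as a block, robust dispersion, each library left out, and a prior count of 0.5. Nothing in the labels states outright that libraries came from different animals; where they did not, p-values reflect only the spread between libraries. Libraries of a genotype, taken in pairs, gave chi-square values of 11.0 or more per degree of freedom, so none agreed within sampling noise.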

Additional observations from a re-analysis of the deposited data

Results flagged for a closer look

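In groups of 4 libraries, a value was singled out where its gap to the nearest other exceeded the critical value of Dixon's test, as a share of the whole range. Of 136 groups examined, 5 held such a value, where chance gives about 1 in 20. App in Tg replicate 1 was at 2532 CPM, below the other Tg libraries at 2934 to 2980 CPM. Ptpn6 in Tg replicate 1 was at 6.53 CPM, below the others at 8.98 to 9.24 CPM. Pias3 in Tg replicate 3 was at 18.9 CPM, below 21.9 to 22.2 CPM. Bcl2l1 in Tg replicate 4 was at 103 CPM (102.9), above 85.6 to 87.8 CPM. Ccnd1 in NTg replicate 3 was at 32.1 CPM, above 19.5 to 21.2 CPM. None of the 9 genes of the gp130 axis was singled out in this way.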

How the results depend on the processing

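Directions of Lif, Osmr, Stat3, Socs3, Il6ra and Il6st (higher in Tg) and of Lifr (lower) held under every alternative run, while Cntfr, near 0, ranged from -0.05 to 0.09 with single libraries left out. Counts of calls depended on the tool and filter. DESeq2 called 352 genes, 1.63% of those tested, with 4 of the 8 tested genes of the axis and 11 of the 58 other pathway genes. With no filter on low counts edgeR called 127 of 39716 genes, with 3 of the axis and 6 of the other pathway genes. The axis and pathway genes were chosen with results of these data known, so the shares over all genes are no yardstick for them. Other scaling factors left the count at 3 genes. Leaving out each library gave 3 to 314 genes over all, 0 to 4 of the axis and 0 to 9 of the other pathway genes; the highest counts came without Tg replicate 1, and the total was 16 without NTg replicate 1 and 9 without Tg replicate 2. The medians of the kinase and STAT list ranged from 0.054, without Tg replicate 3, to 0.16. With a filter of at least 1 CPM in 4 libraries the ligand median was -0.11, since fewer, more abundant ligands remained, and with single libraries left out it ranged from 0.044 to 0.30. With the replicate number as a block 1 gene was called, 0 of the axis, and App missed the threshold (log2 fold change 0.94, adjusted p = 0.0838). The numbers pair no animals in the labels, and same-numbered libraries correlated at -0.03 to 0.16 in their deviations, so the block was not used. With a prior count of 0.5, 4 of the 5 genes most like Lif and all 5 for Osmr and Socs3 were named again. Lif, Osm and Cntf, with few counts, are limited by depth.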

Other observations

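Some genes known as Stat3 targets that are not described above, chosen after their values were seen, are given here by their values; edgeR called 0 of them over all genes, and DESeq2 called Cebpd, Cd44, Tnfrsf1a, Il4ra and Icam1 but not Vegfa or Fosl2. Cebpd, a transcription factor of the acute-phase response, stood at 3.84 ± 0.570 CPM in the NTg libraries and at 8.37 ± 3.09 CPM in the Tg libraries (SD, n = 4), with a log2 fold change of 1.12 (SE 0.25; edgeR adjusted p = 0.167). Cd44, a hyaluronan receptor, was at 6.90 ± 0.905 and 14.4 ± 4.88 CPM, and the TNF receptor Tnfrsf1a at 10.6 ± 0.822 and 16.6 ± 3.46 CPM. Il4ra, a chain of the interleukin-4 receptor, was at 7.97 ± 0.554 and 10.1 ± 0.473 CPM, and its 4 Tg libraries lay above all NTg libraries. Icam1, an adhesion molecule, was at 2.91 ± 0.366 and 4.31 ± 0.756 CPM. The 2 targets with a negative log2 fold change were Vegfa, a growth factor of vessels, at 74.8 ± 10.7 and 56.4 ± 17.3 CPM (a log2 fold change of -0.41; SE 0.19; adjusted p = 0.705), and Fosl2, a subunit of AP-1, at 35.2 ± 8.03 and 28.6 ± 6.33 CPM.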
